A study of Mus musculus with 9 samples.

Results

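The genes described here are the 10 that the platform annotation names Rag1, Rag2, Dntt, Vpreb1, Vpreb3, Igll1, Cd79a, Cd79b, Ebf1 and Pax5, which serve V(D)J recombination and the pre-B cell receptor. They are 10 of the 18193 genes measured, and 19 of the 45101 probe sets carry them: 18 that the annotation gives to a single gene and 1 that Vpreb1 shares with Vpreb2. The genes were chosen by function and selected on values of these same arrays, above all their levels in VSEL against HSC, so their levels and differences are given as a description with no test. Each group had 3 arrays. VSEL (very small embryonic-like stem cells) were sorted from bone marrow of C57BL/6 mice aged 4 weeks as cells with Sca-1 and without lineage markers or CD45. HSC (haematopoietic stem cells) came from the same marrow and differed in the gate by carrying CD45. ESC are the D3 line of mouse embryonic stem cells, strain 129S2/SvPas, grown on 0.1% gelatin with leukaemia inhibitory factor (LIF) at 10 ng/ml and therefore a single line. Every library was made from 20 sorted cells by T7-primed, PCR-amplified cDNA. Whether libraries of the same group trace to different animals or dishes is not said in the labels, so every error and p-value measures only the spread between libraries, which may be technical. VSEL and HSC shared strain, age and tissue, while ESC differed from both in strain and in being cultured with LIF, so cell type, strain and culture cannot be told apart in comparisons with ESC.

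Developing lymphocytes assemble their antigen receptor genes by V(D)J recombination. The RAG1 and RAG2 proteins form the recombinase that cuts the DNA at recombination signals, terminal deoxynucleotidyl transferase (Dntt) adds bases at the joints, and the general machinery for joining broken ends closes them. In a B cell precursor the finished heavy chain first pairs with a surrogate light chain, built from the Vpreb1 and Igll1 (lambda5) products, and reaches the surface with the signalling chains Ig-alpha (Cd79a) and Ig-beta (Cd79b) as the pre-B receptor. Ebf1 and Pax5 encode transcription factors that set up the B cell programme. In bone marrow this set of genes marks pro-B and pre-B cells.

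Promoter windows of 300 bases around the annotated start, mostly upstream of it, were taken from RefSeq on GRCm38.p6. An entry was found for 9 of the 10 genes, in 10 windows, since Ebf1 has 2. Cd79b has none. The windows were searched on both strands for the octamer ATGCAAAT, the EBF motif (TCCC, any 2 bases, then GGGA), the E-box CAGGTG and the RUNX motif TGTGGT. No match overlapped a match to another motif. The 5 windows shown belong to the 2 recombinase genes and to Vpreb1, Igll1 and Vpreb3. The recombinase genes lie next to each other on chromosome 2 and differed in measured signal. Vpreb1, Igll1 and Vpreb3 were all highest in VSEL. Capitals mark the matches, read 5' to 3' on the gene's strand. The Rag1 window is chr2:101649483-101649782 on the minus strand, Rag2 chr2:101624462-101624761 on the plus strand, Vpreb1 chr16:16869206-16869505 and Igll1 chr16:16863936-16864235 on the minus strand, and Vpreb3 chr10:75948050-75948349 on the plus strand.
Rag1: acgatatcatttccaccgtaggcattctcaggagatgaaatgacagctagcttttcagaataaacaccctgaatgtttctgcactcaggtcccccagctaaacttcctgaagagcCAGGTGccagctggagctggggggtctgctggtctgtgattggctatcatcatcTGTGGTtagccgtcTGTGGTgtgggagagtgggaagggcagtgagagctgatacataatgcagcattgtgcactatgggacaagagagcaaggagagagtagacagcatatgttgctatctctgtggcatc
Rag2: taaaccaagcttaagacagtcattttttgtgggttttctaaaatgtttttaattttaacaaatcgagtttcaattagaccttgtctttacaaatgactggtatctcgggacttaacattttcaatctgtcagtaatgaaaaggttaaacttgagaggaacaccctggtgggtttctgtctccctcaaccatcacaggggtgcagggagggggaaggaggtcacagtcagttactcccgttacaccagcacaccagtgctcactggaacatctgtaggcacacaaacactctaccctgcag
Vpreb1: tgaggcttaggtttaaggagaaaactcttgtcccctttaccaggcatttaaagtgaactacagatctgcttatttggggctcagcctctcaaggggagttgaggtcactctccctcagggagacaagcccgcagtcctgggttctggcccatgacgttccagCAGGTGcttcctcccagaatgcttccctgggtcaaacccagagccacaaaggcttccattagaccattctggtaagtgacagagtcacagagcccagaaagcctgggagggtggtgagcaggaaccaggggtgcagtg
Igll1: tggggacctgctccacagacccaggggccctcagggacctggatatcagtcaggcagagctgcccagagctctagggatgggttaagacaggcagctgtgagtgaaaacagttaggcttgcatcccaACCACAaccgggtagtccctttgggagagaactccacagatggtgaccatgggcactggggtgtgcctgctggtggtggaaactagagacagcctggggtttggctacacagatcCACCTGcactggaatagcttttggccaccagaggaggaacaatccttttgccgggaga
Vpreb3: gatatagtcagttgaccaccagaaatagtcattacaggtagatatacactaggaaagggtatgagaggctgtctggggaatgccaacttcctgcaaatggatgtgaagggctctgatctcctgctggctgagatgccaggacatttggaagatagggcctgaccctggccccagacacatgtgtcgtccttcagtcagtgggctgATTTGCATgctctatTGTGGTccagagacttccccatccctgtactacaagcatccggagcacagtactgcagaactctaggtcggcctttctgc

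The Rag1 window held an E-box and a pair of RUNX matches, while the Rag2 window held no match to any of the 4 motifs. The Vpreb1 window held an E-box, the Igll1 window an E-box and a RUNX match, both on the opposite strand, and the Vpreb3 window an octamer on the opposite strand followed by a RUNX match. Of all 10 windows, 4 held the E-box, against 20.2% of the 32851 promoter windows of the same length, and 4 held the RUNX motif, against 16.8%. The octamer was found in 1 of the 10 and in 1.74% of all windows, and the EBF motif in 0 of the 10 and in 0.904% of all. A match describes the letters in the window, not binding of a factor, and no match says only that those letters are absent from it. Igll1 and Vpreb1 are neighbours on chromosome 16, and Dntt has Blnk, the adaptor of the pre-B receptor, as its neighbour in the annotation.

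Values are log2 RMA values as deposited, so a difference of 1 is a doubling, and a level is compared only within a probe set. A probe set is called dim on an array where its value was at or below the 95th percentile of 44 olfactory receptor probe sets on that array. The reference was 6.16 to 6.37 on VSEL arrays, 5.54 to 5.82 on HSC arrays and 5.59 to 5.65 on ESC arrays. This is a reference for weak signal, not a detection call. VSEL arrays 2 and 3 were close to copies of each other (r = 0.989, with 1 probe set more than 4-fold apart, against r of 0.831 to 0.957 and 1565 to 4232 probe sets in the other pairs of a group). They were averaged as library VSEL 2+3, which leaves 8 libraries, and means ± SD are over 2 VSEL, 3 HSC and 3 ESC libraries. The VSEL libraries differed by more than 4 log2 units in some genes: 2.59% of all genes were higher by that much in VSEL 1 and 2.64% in VSEL 2+3. Ptprc, which encodes CD45, was dim in VSEL (3.25 to 3.59) and at 13.40 to 13.68 in HSC. The median VSEL minus HSC difference over all genes was 0.22. It was 0.15 after a further quantile normalization and 0.06 after cyclic loess. In bulk samples of this kind fewer cells of a type and less RNA per cell cannot be told apart.

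Rag1, the catalytic subunit of the recombinase, was bright on all VSEL arrays and dim on every HSC and ESC array. Its values were 11.00, 9.49 and 8.68 on VSEL arrays 1 to 3, 2.96, 2.98 and 2.99 in HSC, and 2.84, 3.09 and 2.70 in ESC. No VSEL value came within 5 log2 units of any other. VSEL averaged 10.04 ± 1.35 and HSC 2.98 ± 0.02, a log2 difference of 7.07 with an SE of 0.51 from the fit over all groups. It was 8.02 with VSEL 1 alone and 6.11 with VSEL 2+3 alone. Because HSC and ESC were dim, these differences are of deposited values and no fold is given. HSC and ESC overlapped, with a difference of 0.10 (SE 0.46).

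Rag2, whose product is the obligate partner of RAG1, showed no comparable signal. The values were 5.78, 6.32 and 6.30 in VSEL, 5.34, 5.39 and 5.27 in HSC and 5.39, 5.12 and 5.47 in ESC. All arrays were dim except VSEL 2, which lay just above its reference of 6.16. The VSEL values lay above all others, yet the difference to HSC was 0.71 (SE 0.20), and this probe set is the only one that names Rag2. The dim reference of the VSEL arrays was itself higher than that of HSC and ESC.

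Dntt split the VSEL arrays. Its brightest probe set read 10.20 on VSEL 1 but 5.05 and 5.85 on VSEL 2 and 3, which were dim. HSC read 7.72, 6.90 and 7.23, all above the reference, and ESC 4.80, 4.50 and 5.09, all dim. VSEL 1 was therefore higher and VSEL 2 and 3 lower than every HSC array. The mean VSEL minus HSC difference of 0.54 (SE 1.25) stood for neither VSEL library: it was 2.91 with VSEL 1 alone and -1.83 with VSEL 2+3 alone. The remaining Dntt probe sets showed the same split, at 7.65 against 3.71 and 3.18, and at 9.49 against 3.37 and 3.55, and both were dim on every HSC and ESC array. VSEL 1 exceeded VSEL 2+3 by 4.75, 4.20 and 6.03 in the brightest, first and second of these probe sets. HSC exceeded ESC by 2.49 (SE 1.12), with no overlap.

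**Figure D1:**
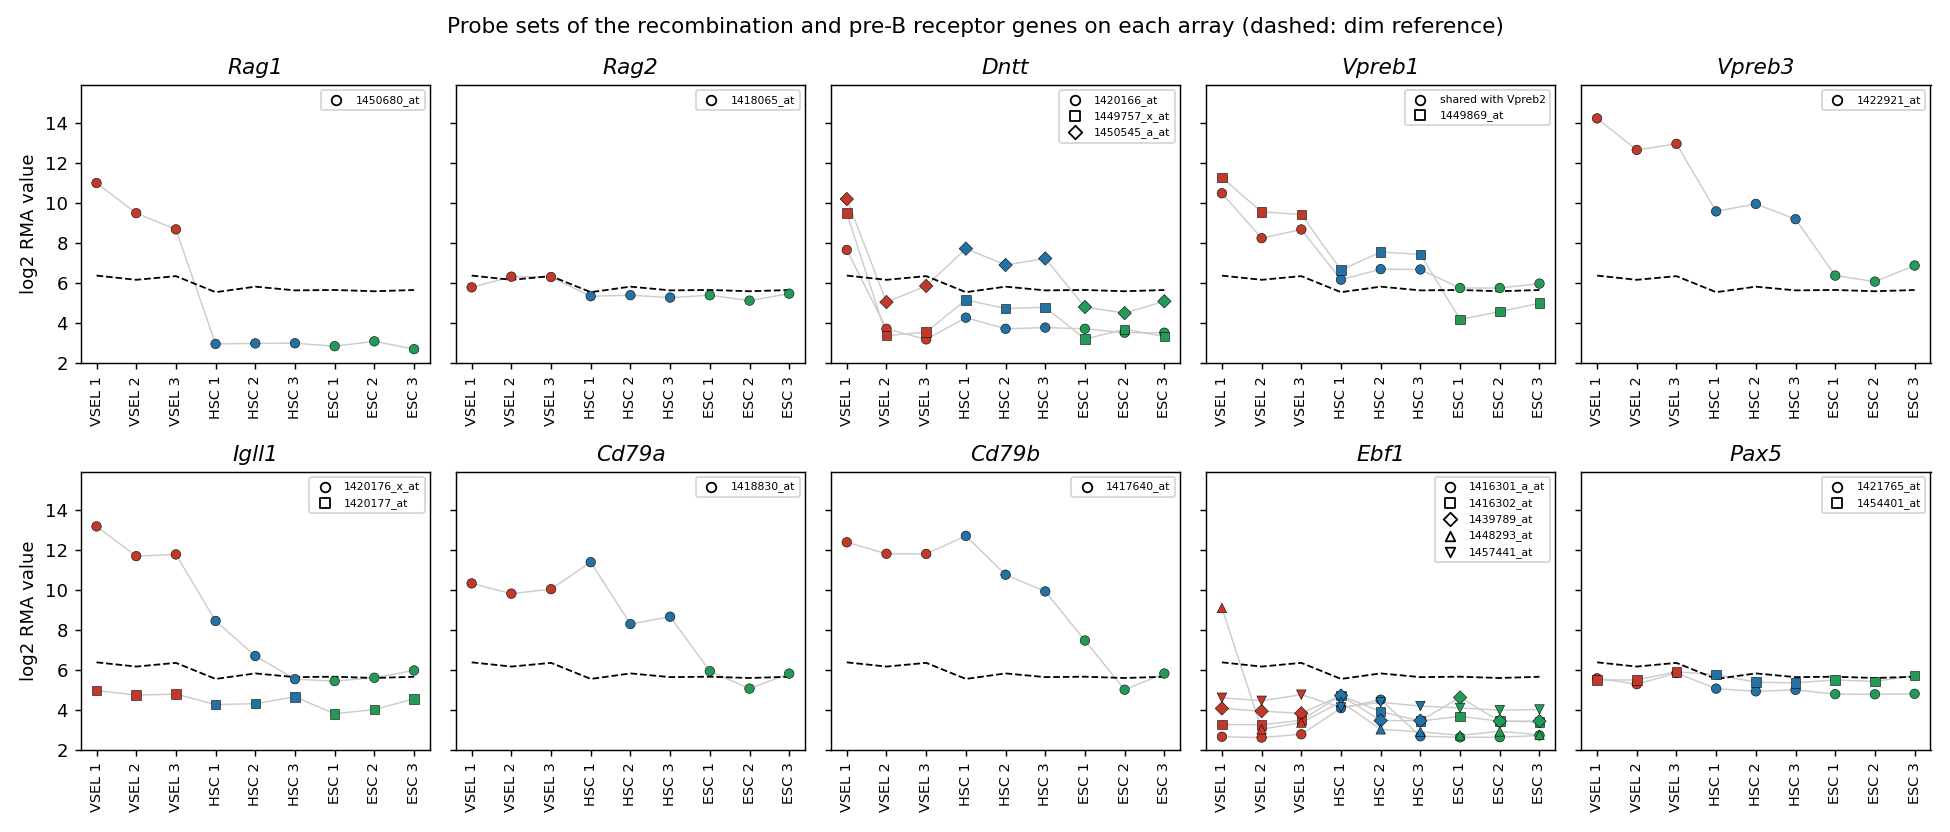
Log2 RMA value (vertical axis) of every probe set of the 10 genes on each of the 9 arrays (horizontal axis), coloured by group, with a marker shape for each probe set and the dim reference of each array as a dashed line. Rag1, Vpreb1, Vpreb3 and the brighter Igll1 probe set are higher on all 3 VSEL arrays than on any other array, while Dntt and 1 Ebf1 probe set are high on VSEL 1 and dim on VSEL 2 and 3.

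The surrogate light chain genes Vpreb1 and Igll1, and Vpreb3, were highest in VSEL. Vpreb1 and Vpreb3 were lowest in ESC, while Igll1 overlapped between HSC and ESC. Vpreb1, which encodes the variable-like part, read 11.27, 9.56 and 9.43 in VSEL, 6.65, 7.55 and 7.43 in HSC, and 4.18, 4.57 and 4.99 in ESC. The groups did not overlap: HSC was above the dim reference on every array and ESC below it. VSEL averaged 10.38 ± 1.26 against 7.21 ± 0.49 in HSC, a log2 difference of 3.17 (SE 0.57), or 9.01-fold, and 4.06 or 2.28 with VSEL 1 or VSEL 2+3 alone. The probe set shared with Vpreb2, a near-identical gene, had the same order, at 10.49, 8.24 and 8.68 in VSEL. It read 6.17 to 6.69 on HSC arrays and 5.75 to 5.97 on ESC arrays. Signal of the 2 genes cannot be told apart there.

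Vpreb3, which encodes a chaperone-like protein of the pre-B receptor assembly, gave 14.23, 12.65 and 12.96 in VSEL, 9.58, 9.95 and 9.19 in HSC, and 6.37, 6.07 and 6.87 in ESC. The 3 groups were again fully separate, and every array was above its dim reference. VSEL averaged 13.52 ± 1.01 and HSC 9.58 ± 0.38, a log2 difference of 3.94 (SE 0.48), or 15.3-fold. HSC exceeded ESC (6.44 ± 0.41) by 3.14 (SE 0.43). With VSEL 1 or VSEL 2+3 alone the VSEL minus HSC difference was 4.65 or 3.23.

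Igll1, the constant-like part of the surrogate light chain, read 13.17, 11.68 and 11.76 in VSEL and 8.44, 6.69 and 5.53 in HSC on its brighter probe set. ESC read 5.43, 5.60 and 5.97. All VSEL values lay above all others, and HSC and ESC overlapped through HSC 3, which was dim. The VSEL minus HSC difference was 5.56 (SE 0.85), and the HSC SD of 1.46 was the widest among Vpreb1, Vpreb3 and Igll1. This probe set is of a kind that can match several transcripts. The other Igll1 probe set was dim on every array, at 4.73 to 4.97 in VSEL and 4.26 to 4.65 in HSC, and its difference was 0.46, so the size of the Igll1 difference rests on a single probe set.

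The signalling chains were shared by VSEL and HSC. Cd79a read 10.32, 9.81 and 10.03 in VSEL, 11.38, 8.28 and 8.65 in HSC, and 5.93, 5.06 and 5.81 in ESC. Cd79b read 12.37, 11.80 and 11.79 in VSEL, 12.69, 10.75 and 9.92 in HSC, and 7.46, 5.002 and 5.81 in ESC. In both genes HSC 1 was the highest of all 9 arrays, and the other HSC arrays lay below VSEL. The VSEL minus HSC difference was 0.68 (SE 0.91) for Cd79a and 0.96 (SE 0.99) for Cd79b, with overlap. Without HSC 1 it was 1.65 and 1.75, without HSC 2 it was 0.10 and 0.78, and without HSC 3 it was 0.29 and 0.36. ESC was separate from both marrow groups. VSEL exceeded ESC by 4.52 (SE 0.91) and 5.99 (SE 0.99) on the log2 scale, and HSC exceeded ESC by 3.84 (SE 0.81) and 5.03 (SE 0.88). ESC 2 was dim for both genes, so no fold is given.

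HSC 1 was also the highest HSC array for Igll1 and for the mature B cell genes Ms4a1 (CD20), at 11.25 against 8.50 and 7.93, and Fcmr, the receptor for IgM, at 13.51 against 9.40 and 10.17. The median of the 16 mature B cell genes was 9.25 in HSC 1 and 7.15 and 7.96 in HSC 2 and 3. Whether mature B cells take part in the HSC values of Cd79a, Cd79b and Igll1 was not tested.

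The transcription factor genes gave little signal. Ebf1 had 5 probe sets, and the only value above the dim reference was 9.09 on VSEL 1, for a probe set that read 3.03 and 3.36 on VSEL 2 and 3, 4.39, 3.03 and 2.90 in HSC and 2.73 to 2.92 in ESC. VSEL 1 exceeded VSEL 2+3 by 5.90 there, an array difference of the same direction as in Dntt. The probe set with the highest mean read 4.601, 4.45 and 4.75 in VSEL, and was dim throughout, with HSC arrays at 4.12 to 4.37 and ESC arrays at 3.98 to 4.09. The VSEL minus HSC differences of the 5 probe sets ran from -1.08 to 2.70, with disagreement in sign. Pax5 had 2 probe sets. The brighter read 5.49, 5.49 and 5.90 in VSEL, 5.76, 5.38 and 5.35 in HSC and 5.49, 5.42 and 5.71 in ESC, dim on all arrays but HSC 1 and ESC 3, with overlapping groups and a VSEL minus HSC difference of 0.10 (SE 0.19). The other was dim on every array, at 5.28 to 5.83 in VSEL and 4.92 to 5.06 in HSC.

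**Figure D2:**
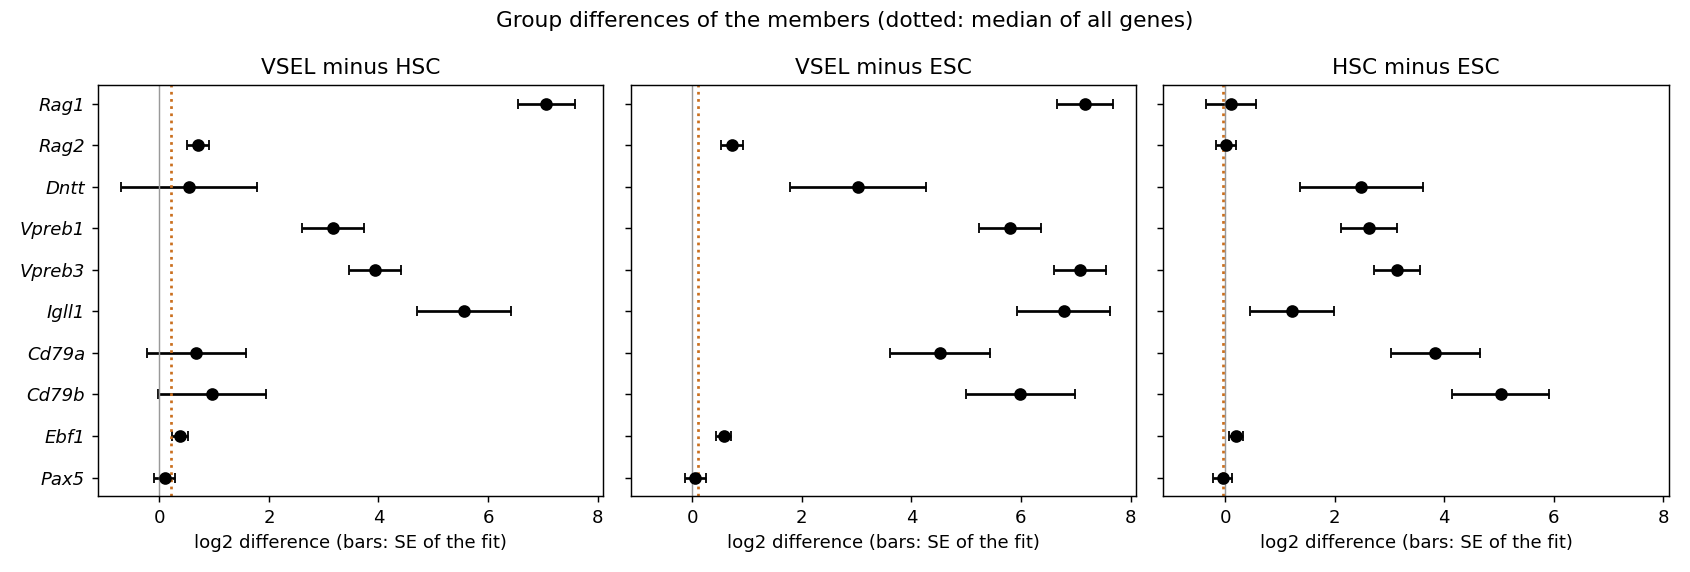
Log2 difference between group means (horizontal axis) of each gene (vertical axis), at its probe set of highest mean, for VSEL minus HSC, VSEL minus ESC and HSC minus ESC, with bars of 1 SE of the fit and a dotted line at the median of all genes. Rag1 is at 7.07 in the first panel and at 0.10 in the third, while Cd79a and Cd79b are at 0.68 and 0.96 in the first and at 3.84 and 5.03 in the third.

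Over the 10 genes, each at its probe set of highest mean, the median VSEL minus HSC difference was 0.84 and all 10 were positive, against a median of 0.22 over all genes. In 6 the groups did not overlap and VSEL was higher, and 4 overlapped. Of all genes 55.2% had groups that did not overlap, 37.7% with VSEL higher and 17.5% with VSEL lower. The fit (limma, adjusted p under 0.05) called 4 higher (Rag1, Vpreb1, Vpreb3 and Igll1) and none lower, where it called 17.4% of all genes, 8.04% of them higher and 9.39% lower. Of all calls 46.1% were higher in VSEL, and 61.0% after a further quantile normalization. Since these values chose the genes, the calls are a description and not a test of them. Nothing is read from the counts, in this comparison or in those with ESC that follow. In VSEL against ESC the median was 5.16, against 0.11 over all genes. There 9 genes were separate and higher, where 55.6% of all genes were separate (32.9% higher and 22.8% lower), and 7 were called higher, where 17.0% of all genes were called, 6.33% higher and 10.6% lower. The 7 were Rag1, Vpreb1, Vpreb3, Igll1, Cd79a, Cd79b and Ebf1, the last by 0.57 at a probe set that was dim on every array. The higher share of those calls was 37.3% as deposited and 56.3% after a further quantile normalization, and 51.7% after cyclic loess. In HSC against ESC the median was 1.85, against -0.04 over all genes, with 6 separate and higher, where 38.1% of all genes were separate (16.6% higher and 21.5% lower). There 4 were called higher (Vpreb1, Vpreb3, Cd79a and Cd79b), where 17.0% of all genes were called, 7.06% higher and 9.98% lower. The comparisons share their groups and are not independent of each other.

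The general joining and repair factors, which are not particular to lymphocytes, did not move as one list. Of 15 measured, 3 rose in VSEL against HSC and none fell, with a median difference of -0.03 (0.22 over all genes). Of all genes 8.04% were called higher there and 9.39% lower. Xrcc6, the Ku70 subunit that binds DNA ends, read 12.08 in VSEL 1, 12.94 in VSEL 2+3 and 8.28 to 9.07 in HSC, a difference of 3.96 (SE 0.37, adjusted p = 0.0013, limma). The other Xrcc6 probe set differed by 0.63, so the size of the Xrcc6 difference rests on a single probe set. Nbn, a sensor of broken ends, differed by 2.70 (SE 0.46, limma adjusted p = 0.0132). H2ax, a histone marked at breaks, differed by 1.63 (SE 0.25, limma adjusted p = 0.0092). Xrcc5, the Ku80 partner of Ku70, did not pass (-0.54, limma adjusted p = 0.474), and Prkdc, the DNA-dependent kinase, and Lig4, the ligase, gave -1.56 (limma adjusted p = 0.124) and -1.44 (limma adjusted p = 0.56). Lig4 was dim on all VSEL arrays. Against ESC, Xrcc6 and Nbn were higher in VSEL and Xrcc5, Nhej1 and Poll were lower. The shares called over all genes in VSEL against ESC were 6.33% higher and 10.6% lower. Over the 17 alternatives of that comparison 0 to 2 of the list were called higher and 0 to 5 lower. Xrcc5 passed in 16 of 17, Xrcc6 in 13 of 17, Poll in 12 of 17, Nbn in 10 of 17 and Nhej1 in 9 of 16. HSC was lower than ESC in 5 of the 15 and higher in none, where 9.98% of all genes were called lower and 7.06% higher.

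Of 17 signalling genes of the pre-B and B cell receptor, 1 rose and 2 fell in VSEL against HSC. Of all genes 8.04% were called higher there and 9.39% lower. The median of the list was -1.16, against 0.22 over all genes. Over 17 alternatives 0 to 2 of the list were called higher and 1 to 5 lower. Cd72, an inhibitory co-receptor of B cells, read 10.61 in VSEL 1, 11.78 in VSEL 2+3 and 9.43 to 9.60 in HSC, a difference of 1.66 (SE 0.35, limma adjusted p = 0.0249) that passed in 12 of 16 alternatives. Grb2, a general adaptor, fell by 1.98 (limma adjusted p = 0.0084). Pik3cd, a lipid kinase, fell by 1.73 (limma adjusted p = 0.0462) and passed in 9 of 17 alternatives. Syk, the kinase that binds the tails of Ig-alpha and Ig-beta, gave -0.86 (limma adjusted p = 0.606). Its values were 9.92 in VSEL 1, 6.99 in VSEL 2+3 and 8.61 to 9.72 in HSC, so -0.86 stood for neither VSEL library. The other Syk probe sets did not show this split and disagreed in sign, with differences of -2.43, 0.10 and 0.51. The probe set at -2.43 read 5.22 in VSEL 1, 5.52 in VSEL 2+3 and 6.70 to 9.77 in HSC. Btk, the kinase after Syk, gave 0.58 (limma adjusted p = 0.269) and was dim in all 3 groups. Blnk was split like Dntt, at 12.94 in VSEL 1 and 7.14 in VSEL 2+3, with HSC at 10.59, 9.47 and 8.43.

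The split between VSEL libraries was counted over the lists after it was seen. Of the 17 signalling genes, Blnk, Bank1 and Fcrla were higher in VSEL 1 by more than 4 log2 units, and Fyn, Plcg2, Vav1 and Prkcb in VSEL 2+3. Of the 21 B lineage regulators, Id2 was higher in VSEL 1 and Tcf12, Il7r, Pou2af1 and Myb in VSEL 2+3. The Id2 split was not seen in its other probe sets, at 4.74 and 3.50 in VSEL 1 and 4.70 and 3.56 in VSEL 2+3. Il7r, the interleukin receptor on which B cell precursors depend, read 4.70 in VSEL 1 and 12.69 in VSEL 2+3, with HSC at 11.05 to 11.68. Pou2af1, a co-activator with the octamer factors, read 3.53 and 9.69. Among pro-B and pre-B genes, Cd93 (12.25 against 4.48) and Arpp21 (10.54 against 4.30) were high in VSEL 1 at their probe sets of highest mean. No other Arpp21 probe set showed the split. For Cd93 it recurred in a further probe set, at 7.74 against 3.65, but not in the rest. In the other cell type lists Tnfrsf13b and Gata1 were higher by more than 4 in VSEL 1, and Ms4a1, Cd40, Nkg7, Siglech and Cd34 in VSEL 2+3. None of the 15 joining factors differed by this much, and among the 10 genes described here only Dntt did at its main probe set. With 2 VSEL libraries, no spread within either can be given for these genes.

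Of the 21 regulators of B lineage transcription and specification, each at its probe set of highest mean, none rose and 4 fell in VSEL against HSC. Of all genes 8.04% were called higher there and 9.39% lower. The median of the list was -0.84, against 0.22 over all genes. Over 17 alternatives 0 to 2 of the list were called higher and 1 to 8 lower, and 9 of the alternatives moved the count by over 1.5 times. The Sox4 probe sets disagreed, with VSEL minus HSC differences from -1.10 to 6.29. The probe set counted gave -0.42. The probe set at 6.29 read 12.67 and 9.10 in VSEL and 7.73, 3.16 and 2.89 in HSC, with HSC 2 and 3 dim. Tcf12, an E protein, fell by 4.41 (limma adjusted p = 0.0494). It passed in 5 of 17 alternatives, and without probe sets that can match several transcripts its difference was 0.84. Id2, an inhibitor of E proteins, fell by 4.38 (limma adjusted p = 0.0453) and passed in 5 of 16. Its other probe sets differed by -4.88 and -1.58. The E protein gene Tcf4 fell by 3.83 (limma adjusted p = 0.0171) and passed in 12 of 16. Foxo1, which is known to act upstream of the Rag genes in B cell precursors, fell by 3.41 (SE 0.52, limma adjusted p = 0.0094). It is named after its values were seen, and passed in all 17 alternatives. Tcf3, the E protein gene that acts with Ebf1, gave -0.31 (limma adjusted p = 0.802). It read 8.40 in VSEL 1 and 11.28 in VSEL 2+3, with HSC at 9.68 to 10.87. The mean difference of -0.31 stood for neither VSEL library. The other Tcf3 probe sets did not show this split. They read 7.70 and 6.79 in VSEL 1 and 7.12 and 6.83 in VSEL 2+3, with VSEL minus HSC differences of 0.80 and -0.13. Against ESC, 6 of the 21 were called higher in VSEL, where 6.33% of all genes were, and 13 in HSC, where 7.06% were. Spib, Spi1, Irf4, Irf8, Ikzf1 and Id3 were higher in VSEL, and all of these except Id3 were also among those higher in HSC.

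Of the 13 symbols listed for immunoglobulin genes and Vpreb2, 4 genes had a probe set of their own, Ighm, Igha, Jchain and a kappa variable gene. Ighm, the mu heavy chain that the surrogate light chain pairs with, read 14.21 in VSEL 1, 12.20 in VSEL 2+3 and 13.77 to 13.88 in HSC, a difference of -0.62 (limma adjusted p = 0.43), and 6.82 to 6.86 in ESC. Its 11 probe sets disagreed: differences between VSEL and HSC ran from -5.85 to 0.12, and probe sets of immunoglobulin genes can share sequence. Jchain, which links IgM and IgA, read 3.57 and 3.75 in VSEL, where it was dim, and 11.55 to 12.65 in HSC (-8.47, SE 0.31, limma adjusted p = 3.99e-05). Igha, the alpha heavy chain, read 6.92 and 7.77 in VSEL and 13.81 to 14.29 in HSC (-6.68, SE 0.29, limma adjusted p = 6.5e-05). Both fell in VSEL against HSC and passed in every alternative.

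**Figure D3:**
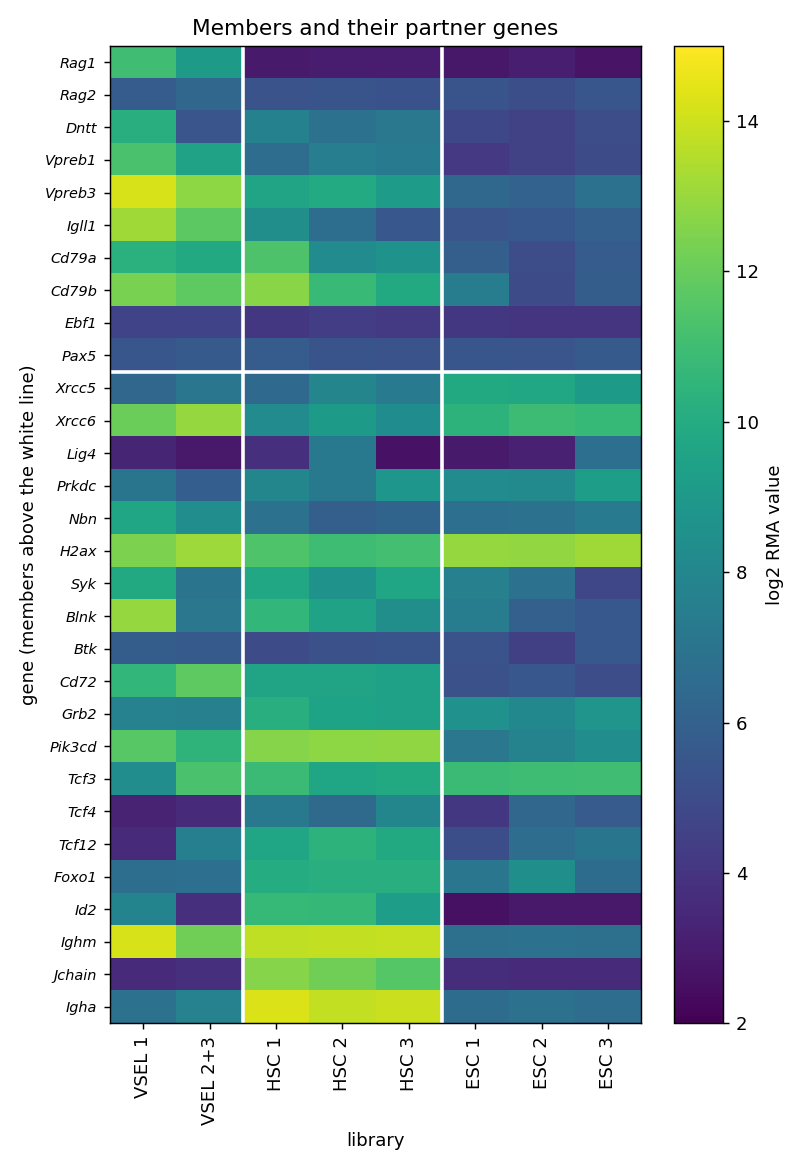
Log2 RMA value (colour) of the 10 genes (above the horizontal white line) and of 20 partner genes (below it) in the 8 libraries, with vertical white lines between the groups. Rag1, Vpreb1, Vpreb3 and Igll1 are bright in both VSEL libraries, while Jchain and Igha are bright in HSC, and Dntt and Blnk are brighter in VSEL 1 than in VSEL 2+3.

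Markers of other cell types were read beside these genes, since 20-cell libraries can hold several types. The 10 lists are given by the genes called in VSEL against HSC and by their median log2 value in each library. Of all genes 8.04% were called higher in that comparison and 9.39% lower. Of 14 pro-B and pre-B surface and stage genes 2 rose and 3 fell, with list medians of 7.33 in VSEL 1, 6.14 in VSEL 2+3 and 6.33 to 7.35 in HSC. Myl4 rose by 4.49 (SE 0.63, limma adjusted p = 0.0066), and Cd2 fell by 5.85 (limma adjusted p = 0.000773). The other Myl4 probe set differed by 0.57, so the size of the Myl4 difference rests on a single probe set. Cd24a is a surface protein of early B cells and other immature cells. At its probe set of highest mean it read 14.35 and 12.80 in VSEL and 11.76 to 12.59 in HSC. It did not pass there (1.39, limma adjusted p = 0.121), but passed in 2 alternatives. Its other probe sets differed by 3.25 and 2.80, with both VSEL libraries above all HSC libraries in each. Mme (CD10) was dim in VSEL and HSC. Of 16 mature B cell genes none rose and 6 fell, with medians of 5.21 and 4.94 in VSEL and 7.15 to 9.25 in HSC, and 10 of the 16 were dim on every VSEL array. Fcmr was one of these and fell by 6.32 (limma adjusted p = 0.0153), while Cr2 and Fcer2a were dim in HSC as well. Others were bright in VSEL and not called: Siglecg read 11.59 and 10.31, Cd37 read 10.43 and 9.56, and Ms4a1 and Cd40 read 10.66 and 10.99 in VSEL 2+3, against 3.64 and 6.53 in VSEL 1. Of 7 plasma cell genes none was called. Sdc1 and Prdm1 were dim in VSEL, while Xbp1 read 11.45 and 12.97 and Mzb1 11.03 and 12.89 there, against 11.63 to 12.09 and 8.89 to 12.19 in HSC.

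Most T cell and NK cell genes fell in VSEL against HSC. Of 16 T cell genes 13 fell, and of 9 NK cell genes 7 fell. Cd3g, a chain of the T cell receptor complex, read 4.18 and 4.38 in VSEL and 12.55 to 13.01 in HSC, and Klrd1, an NK receptor, 3.41 and 3.61 in VSEL and 10.92 to 11.40 in HSC. Some members were bright in VSEL too: Lat, an adaptor of the T cell receptor, fell by 2.51 (limma adjusted p = 0.0202) but read 10.16 and 10.67 there. The NK genes Nkg7 and Ncr1 were not called and read 11.23 and 9.73 in VSEL 2+3, against 4.95 and 6.32 in VSEL 1. Rag1 was dim in HSC. Dntt was above the reference in HSC, and Rag1 and Dntt also serve T cell precursors. Ptcra, the surrogate chain of the pre-T receptor, was dim in both groups. Of 10 plasmacytoid dendritic cell genes 4 fell, Irf7 by 4.64 (limma adjusted p = 0.000674). Siglech read 6.35 in VSEL 1, 10.84 in VSEL 2+3 and 6.61 to 8.45 in HSC, and Ly6d read 10.07, 11.56 and 7.32 to 11.11, with neither called.

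Erythroid and pluripotency genes were higher in VSEL. Of 9 erythroid genes 5 rose and none fell, with medians of 12.66 and 11.63 in VSEL, against 7.55 to 9.07 for HSC and 5.36 to 5.55 for ESC. Slc4a1, the anion exchanger of red cells, rose by 4.63 (SE 0.70, limma adjusted p = 0.0088). Of 12 pluripotency genes 10 rose and 1 fell, with medians of 9.44 and 9.48 in VSEL, against 4.50 to 4.83 for HSC and 11.69 to 12.002 for ESC. Of 12 neutrophil and monocyte genes 1 fell, and 11 were above the reference on every VSEL array and all 12 on every HSC array. Of 10 stem and progenitor genes 1 rose and 2 fell. Meis1, Mecom, Hlf and Procr were among the 6 that were dim on every VSEL array, and Meis1 and Mecom were also dim in HSC. The part of any of these cell types in the values of the recombination and pre-B receptor genes was not tested.

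**Figure D4:**
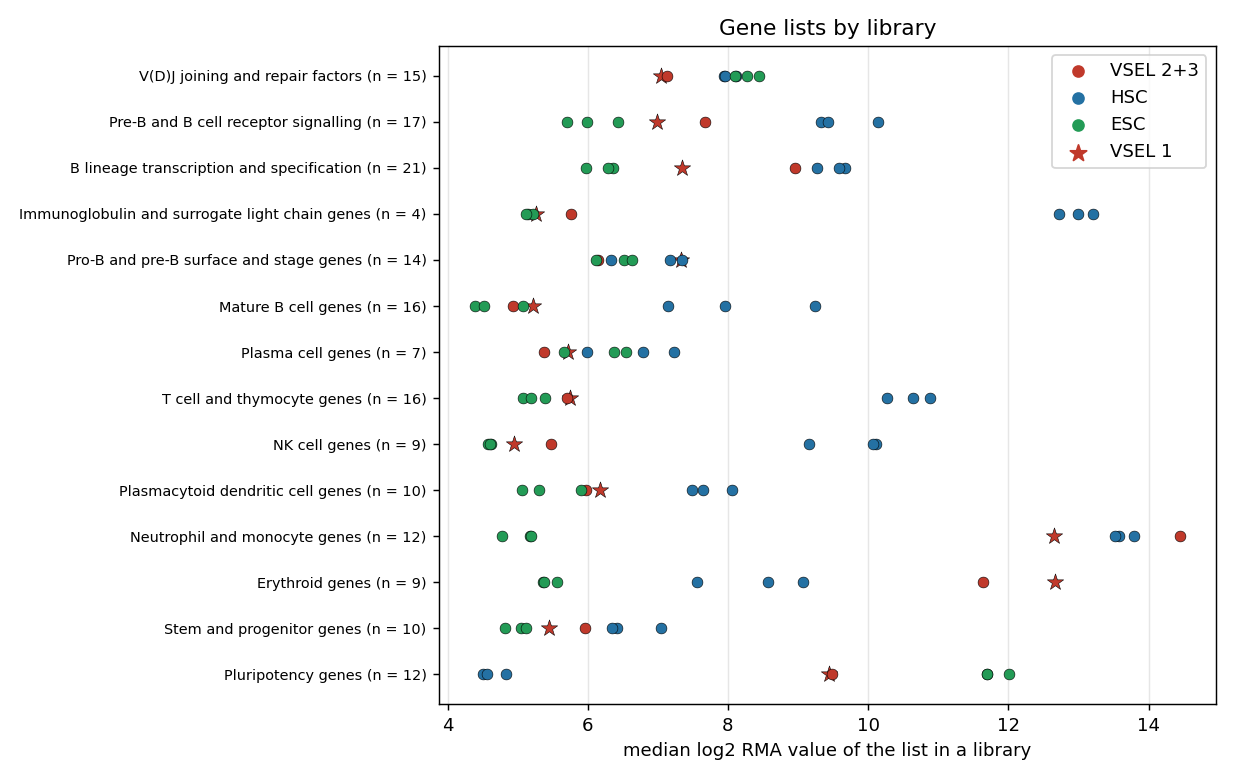
Median log2 RMA value (horizontal axis) of each gene list (vertical axis, with the number of genes measured) in each of the 8 libraries, coloured by group, with VSEL 1 as a star. The VSEL libraries lie above all HSC libraries for erythroid and pluripotency genes. For the pro-B and pre-B genes and the neutrophil and monocyte genes the VSEL and HSC libraries overlap. For every other list, the joining, signalling and regulator lists included, both VSEL libraries lie below all HSC libraries.

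The genes most like each of the 10 were found by Pearson's r over the 8 libraries among the 6256 genes whose range was at least 3 log2 units. The points share their group structure, so r mostly reflects the order of the groups and has no p. Rag1 was most like 5430401H09Rik (r = 0.995), Ypel4 (0.990) and Ackr1 (0.984). Vpreb1 was most like Hbb-b2, a beta globin (0.993), Alas2, an erythroid haem synthesis enzyme (0.991), and Ermap, an erythroid membrane protein (0.984). Vpreb3 was most like Map3k11 (0.991), Uros, another enzyme of haem synthesis (0.991), and Ermap (0.985). Igll1 was most like E2f2 (0.988), Ces2g (0.979) and Abcb10 (0.974). Dntt was most like Ppp1r16b (0.984), Fcrla (0.984) and Tpcn1 (0.979).

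Cd79a and Cd79b had other nearest genes. Cd79a was most like Siglecg, an inhibitory B cell lectin (0.969), Mzb1 (0.963) and Spib (0.960). Cd79b was most like Tpra1 (0.968), Lgals9 (0.964) and Irf8 (0.962). Rag2, Ebf1 and Pax5 ranged over 1.19, 0.62 and 0.42 log2 units at their main probe sets, so their nearest genes are given by name alone: Mettl9, Tax1bp3 and Slc6a12 for Rag2, Cpox, Rsad2 and Car2 for Ebf1, and Phc3, Gas2l3 and Phip for Pax5.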

How the data were processed

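Expression was measured on 9 arrays of 20-cell libraries, 3 each for VSEL, HSC and ESC. The authors deposited 1 log2 value per probe set and array. RMA and Partek 6.5 are named as the authors' tools by the submitters' processing notes, and their settings were not stated there. Nothing further was done to the deposited log2 values. Precision is limited by how few arrays there are.

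The 10 genes and all gene lists were chosen with earlier results of these data known. The platform annotation named the probe sets: of 45101, 64 controls were left out, 932 had several genes, and 34945 had 1 gene, with 34741 symbols updated through RefSeq (GRCm38.p6). Each of 18193 genes was read from its probe set of highest mean, so a choice among probe sets can set a value. The test was limma's (lmFit, eBayes; version 3.58.1 under R 4.3.3), two-sided, adjusted by Benjamini-Hochberg over all genes and called at 0.05, in 1 fit over 8 libraries with 5 residual degrees of freedom. VSEL arrays 2 and 3 were averaged. The fit assumes the same spread in every group. The scripts were tested on simulated data. No detection calls were used.

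Named genes are the 10, direct partners, the 3 largest called differences of a pathway list in each direction, and the 3 most alike. The 2 brightest genes of a cell type list in VSEL and in HSC were also meant to be named. This was not done for every list, and no gene of the neutrophil and monocyte list or the pluripotency list is named. Other genes were named after their values were seen. Alternatives tried were the arrays kept separate, a replicate block, 2 other scalings, a filter on dim genes, other probe set rules, the 2 groups alone, array weights and leaving out each library. Genes with no probe set of their own (among them Ly6a, Lyn and Igkc) were not analysed here.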

Additional observations from a re-analysis of the deposited data

How the results depend on the processing

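The median VSEL minus HSC difference of the 10 genes, or of those that a filter left, was positive under every alternative read for them. The fit with array weights included these genes, but their differences in it were not read out. Called genes numbered 3170 for VSEL against HSC, 3088 for VSEL against ESC and 3100 for the comparison of HSC with ESC. With all 9 arrays kept separate the first 2 counts were 4778 and 4712, and with array weights 1292 and 1460. VSEL against HSC gave 2075 among genes above the median level and 1637 with the 2 groups alone. Leaving out 1 library gave 1969 (without HSC 1) to 3180 (without VSEL 2+3) in VSEL against HSC, with 2032 without HSC 3 and 2895 without VSEL 1. It gave 1726 (without ESC 2) to 3069 (without VSEL 2+3) in VSEL against ESC, with 1823 without ESC 1, 1955 without ESC 3 and 3033 without VSEL 1. HSC against ESC stayed between 2310 and 3801 over all alternatives. Beyond fewer libraries or genes, the cause was not tested. The median of the 10 genes was 0.84, and 0.60 (without HSC 3) to 2.08 (without VSEL 2+3) with 1 library left out, with 1.70 without HSC 1. The filter for genes above the median level removed Rag1, Rag2, Ebf1 and Pax5. The median of the members left was 2.07, which is not a value of all 10.

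Replicate numbers did not pair the samples: deviations of same-numbered arrays correlated at -0.09 to 0.16. With the replicate block, and 9 arrays, calls were 3463, 3529 and 3068, and the median of the 10 genes was 0.83. Tcf12 turned from -4.41 to 0.84 without probe sets that can match several transcripts, which read it from another probe set. Nbn lost its call with the 2 groups alone (adjusted p = 0.0543, limma). A probe set near the dim reference limits what these arrays show for Rag2, Ebf1 and Pax5.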
